A study of Mus musculus with 6 samples.

Results

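The 50 genes described here carry cells through mitosis: the mitotic cyclins, Cdk1 and its activators, the mitotic kinases, the kinetochore, the spindle assembly checkpoint, condensin, and the proteins of anaphase and cytokinesis. They were chosen by name, from what their products are known to do, though with earlier results of these data known. Kinesins were left out as a family, although Cenpe, a kinetochore motor, is itself one. All 50 were found among the 54532 genes listed, 49 under the given name and Sgol1, whose product shugoshin guards cohesin at centromeres, under its current symbol Sgo1. All 50 passed the expression filter, as did 14679 genes in all, with 54 to 4686 reads per gene and library.

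A cell enters mitosis when Cdk1, bound to cyclin B, is switched on by Cdc25 phosphatases and Plk1. The spindle assembly checkpoint holds back Cdc20 and the anaphase-promoting complex until every kinetochore is attached, after which securin and the B cyclins are degraded, separase cuts cohesin and the cell divides. Transcripts of most of these genes accumulate in G2 and M phase and are scarce in quiescent satellite cells, the muscle stem cells, and several serve as marks of cycling cells. In bulk RNA, fewer cells of a type and less RNA per cell cannot be told apart.

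The RNA came from primary myoblasts, muscle progenitors grown from digested hind-limb muscle of 3-week-old mice. They were collected at day 2 in medium with 10% serum, with FGF at 10 ug/ml. The study compared 3 libraries from eIF5A-KO mice with 3 from WT mice, to learn what loss of the translation factor eIF5A does to activated muscle stem cells. The KO mice carried a tamoxifen-induced Cre driven by Pax7 and a floxed eIF5A gene (Pax7 CreERT2/+; eIF5A f/f), so that only cells that expressed Pax7 could lose it, and the WT littermates are described in one place as Pax7 CreERT2/+ and in another without the Cre. No source used here says whether cells of this experiment were sorted or whether the libraries of a group came from separate animals, so that p-values measure the spread between these libraries, which may be technical. The strain background given for the floxed mice is C57BL/6j.

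The targeted transcript itself was not lower where the label says knockout. Eif5a was at 1600, 985 and 1237 CPM (counts scaled to library size) in WT replicates 1 to 3 and at 1363, 1457 and 1058 CPM in the libraries labelled eIF5A-KO, which overlap. Its log2 fold change was 0.021 (95% confidence interval -0.51 to 0.55). The authors measured the knockout in satellite cells by RT-qPCR and immunostaining and held it successful. Those are other cells and other measures than the libraries here. The part of the gene that Cre removes is not given in the sources used here. Total counts ran from 16281216 to 17734551 per library. WT replicate 1 stood apart, with 5.75% of its counts on mitochondrial transcripts against 2.11% to 3.50% in the others.

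Where mitotic genes move together, a shared set of promoter letters is of interest, because many of them are controlled in the cell cycle through CHR elements and CCAAT boxes close to the start site. The 250 bases before the start are therefore shown for 4 genes, the 4 with the smallest p. They come from a RefSeq promoter table for GRCm38.p6, which holds 42 of the 50. Each reads 5′ to 3′ on the strand of the gene. Capitals mark the CHR core TTTGAA, the CCAAT box, and E2F-type sites (TTTCCCGC, TTTGGCGC, TTTCGCGC or TTTGCCGC), each searched on both strands and counted whether or not it touched another match.
Top2a, DNA topoisomerase II alpha, chr11:99024190-99024439, minus strand: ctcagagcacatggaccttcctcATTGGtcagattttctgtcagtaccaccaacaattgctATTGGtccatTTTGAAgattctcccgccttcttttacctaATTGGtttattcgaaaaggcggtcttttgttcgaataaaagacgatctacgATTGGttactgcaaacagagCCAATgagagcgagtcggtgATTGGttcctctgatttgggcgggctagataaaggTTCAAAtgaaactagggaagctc
Nusap1, a spindle microtubule bundler, chr2:119618048-119618297, plus strand: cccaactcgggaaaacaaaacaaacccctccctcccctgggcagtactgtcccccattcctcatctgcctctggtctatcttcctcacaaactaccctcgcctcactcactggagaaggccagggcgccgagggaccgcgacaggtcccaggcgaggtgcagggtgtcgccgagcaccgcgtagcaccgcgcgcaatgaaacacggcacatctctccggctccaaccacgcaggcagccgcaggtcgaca
Cenpf, a late kinetochore protein, chr1:189688087-189688336, minus strand: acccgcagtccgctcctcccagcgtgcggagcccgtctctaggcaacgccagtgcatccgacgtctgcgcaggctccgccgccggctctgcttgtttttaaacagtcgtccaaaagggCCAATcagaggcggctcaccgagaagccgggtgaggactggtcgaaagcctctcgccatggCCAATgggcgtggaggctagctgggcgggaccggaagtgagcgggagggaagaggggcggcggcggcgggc
Aspm, a spindle pole protein, chr1:139454523-139454772, plus strand: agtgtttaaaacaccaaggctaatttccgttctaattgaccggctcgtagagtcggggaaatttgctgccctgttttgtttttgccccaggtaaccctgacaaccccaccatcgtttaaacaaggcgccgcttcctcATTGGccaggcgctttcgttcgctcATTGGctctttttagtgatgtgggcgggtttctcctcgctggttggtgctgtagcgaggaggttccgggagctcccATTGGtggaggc
The Top2a promoter held 6 CCAAT boxes and 2 CHR cores, the Aspm promoter 3 CCAAT boxes and the Cenpf promoter 2, and that of Nusap1 none of these letters.

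Among the 42 genes with an entry, 32 (76.2%) had a CCAAT box in this window, against 33.8% of all 32851 promoters in the table and 35.0% of the promoters of tested genes. More than 1 box was present in 21 of the 42, against 10.1% of all promoters. The CHR core was present in 15 (35.7%), against 15.99% of all promoters and 10.7% of those of tested genes. Each of those 15 genes also had a CCAAT box, though not necessarily in the same entry where a gene has several. Both were held by 5.55% of all promoters. A gene was counted if any of its entries held the letters, whereas the shares are of single promoters. The 15 genes with both included Cdk1, Ccnb2, Cdc20, Ube2c, Mki67 and Top2a. E2F-type sites were found in 2 of the 42 (4.76%), Cdk1 and Ncapd2, against 1.86% of all promoters and 3.15% of those of tested genes. These are matches of letters, not sites shown to be bound.

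Of the 50 genes of mitosis, 49 had a lower level where the label says eIF5A-KO than in WT, against 51.7% of all tested genes, and none passed the test across all genes in edgeR. The median of the 50 was -0.65, a level 36.1% lower, and the median of all tested genes was -0.011. In 40 of the 50 every labelled eIF5A-KO library was below every WT library, against 6.83% of tested genes, and in 0 was the order the other way, against 5.68%. By edgeR's quasi-likelihood test, 40 of the 50 were lower at an unadjusted p under 0.05, against 4.02% of tested genes, and 0 were higher, against 2.74%. After Benjamini-Hochberg adjustment over all 14679 genes, 0 of the 50 passed 0.05 in edgeR, with 0.0136% of tested genes lower and 0.00681% higher. The smallest adjusted p was 0.242, for Top2a. DESeq2 called 4 of the 50 at an adjusted p under 0.05, Aspm, Cenpf, Nusap1 and Top2a, among 69 genes called lower. Without the expression filter edgeR called 11, among 184 genes called lower. A level more than 2-fold lower with an unadjusted p under 0.05 was seen for 3 of the 50, Aspm, Nusap1 and Cenpf, against 1.32% of tested genes.

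**Figure D1:**
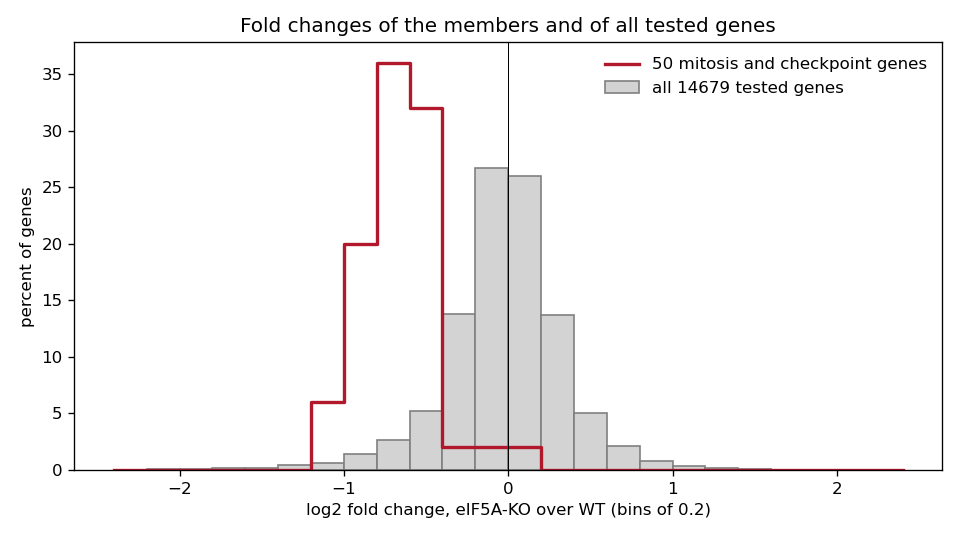
Share of genes (vertical axis, percent) by log2 fold change of eIF5A-KO over WT (horizontal axis, bins of 0.2), for all 14679 tested genes (grey bars) and the 50 mitosis and checkpoint genes (red line). The red line peaks left of the grey bars, with a median of -0.65 against -0.011.

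The difference was not equal among the libraries. Reads on the 50 genes made up 0.276%, 0.288% and 0.267% of all counts in WT replicates 1 to 3, and 0.166%, 0.200% and 0.156% in the libraries labelled eIF5A-KO. The groups did not overlap in this share. Within the labelled eIF5A-KO libraries, replicate 2 was the highest for 44 of the 50 genes and replicate 3 the lowest for 34. Among the WT libraries replicate 1 was the highest for 30 genes and replicate 2 for 18. The median gene lay 0.46, 0.24 and 0.25 above its own mean over the 6 libraries (log2 CPM) in WT replicates 1 to 3, and 0.36, 0.063 and 0.57 below it in the others.

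**Figure D2:**
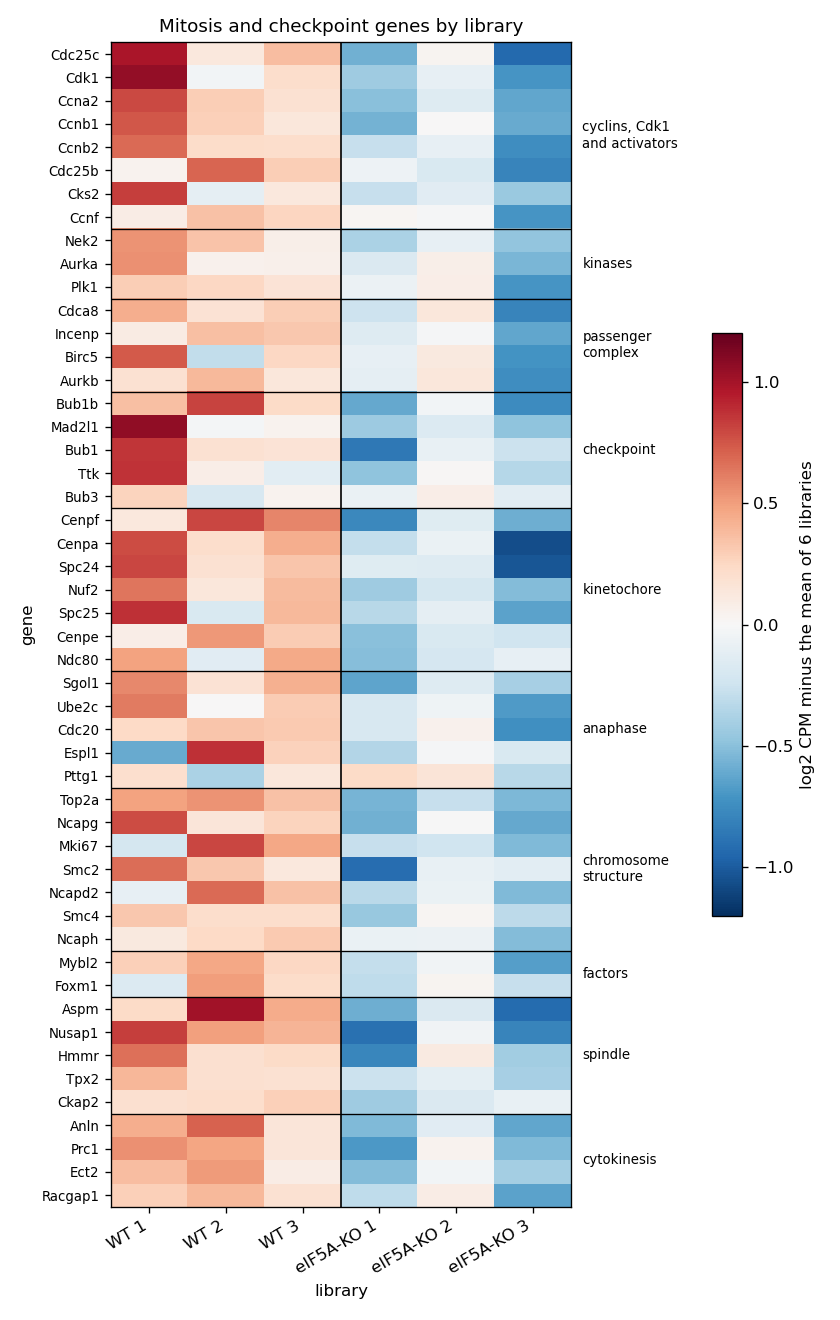
Level of each of the 50 genes (rows, by role) in each of the 6 libraries (columns), as log2 CPM minus the mean of that gene over the libraries. WT columns are mostly red and eIF5A-KO columns mostly blue, with eIF5A-KO replicate 2 the palest of its group for most genes.

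WT replicates 1 and 2 differed from each other by gene length. Over the 50 genes the log2 ratio of WT replicate 1 to 2 went down as gene length went up, with Pearson's r = -0.43, the same as over all tested genes (r = -0.43). Both values are across genes of the same libraries and are given as a description. Even so, replicate 1 was above replicate 2 for 16 of the 25 shorter genes and for 14 of the 25 longer ones. Cks2, a short transcript, was at 67.6 CPM in replicate 1 and 35.2 in replicate 2, and Espl1, a long one, at 13.9 and 38.9 CPM, 2 examples chosen after their values were seen. Lower levels in the libraries labelled eIF5A-KO were found at either length. The median over the 25 shorter genes was -0.63, and over the 25 longer ones -0.69 (log2 fold change). Over the 50, log2 fold change against log2 gene length had Pearson's r = -0.29, against -0.014 over all tested genes, again a description.

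Leaving out WT replicate 1, the library with the most mitochondrial reads, left 34 of the 50 genes lower at an unadjusted p under 0.05 (5.44% of all tested genes in that fit), with a median log2 fold change of -0.55, and 1 gene, Mki67, at an adjusted p under 0.05 (edgeR, adjusted p = 0.0458), among 48 genes, or 0.319% of those tested, called lower. Leaving out eIF5A-KO replicate 1 or eIF5A-KO replicate 3 left 24 genes each time, against 2.66% and 3.48% of all tested genes. Genes more than 2-fold lower with an unadjusted p under 0.05, of which there were 3, numbered 1 without eIF5A-KO replicate 1, 11 without eIF5A-KO replicate 2 and 0 without eIF5A-KO replicate 3. The same call was made for 1.49%, 1.62% and 1.40% of all tested genes in those fits, and for 1.32% with all libraries. Of the 50, 48 were lower in the main comparison and in each of 18 alternative analyses, the exceptions being Bub3 and Pttg1, and 20 were lower at an unadjusted p under 0.05 in all of them, against 1.31% of all tested genes.

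**Figure D3:**
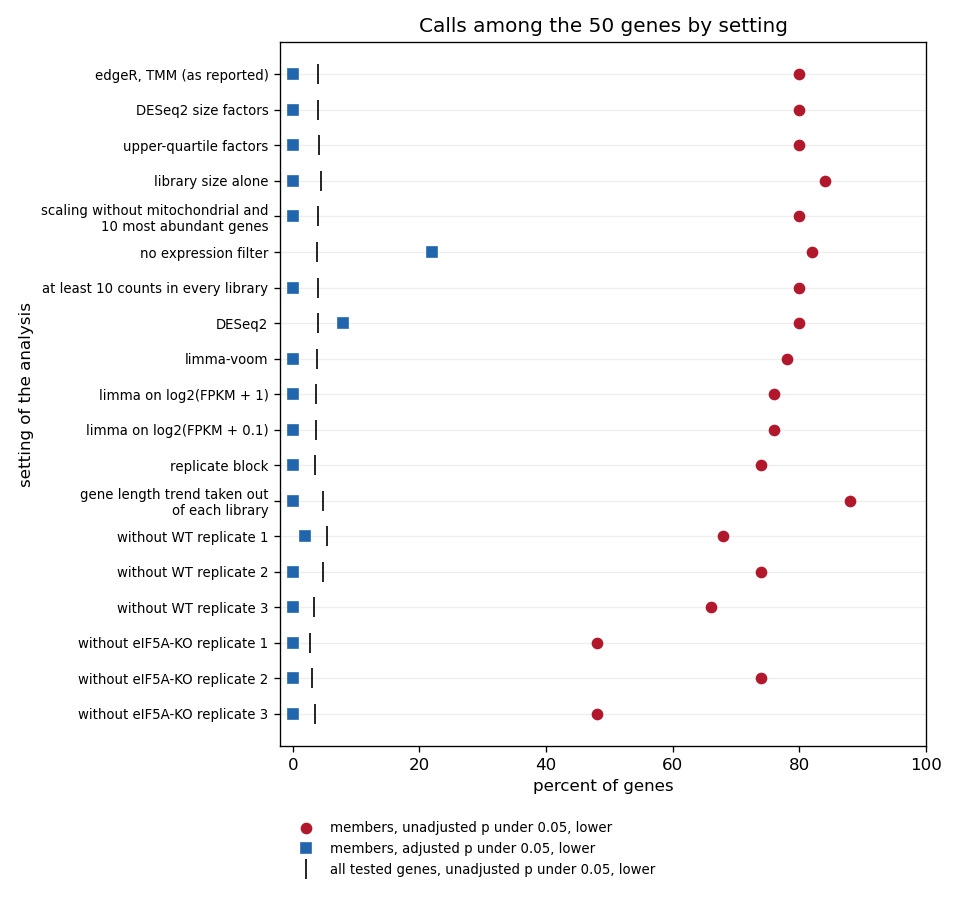
Share of the 50 genes called lower at an unadjusted p under 0.05 (red circles) and at an adjusted p under 0.05 (blue squares), beside the share of all tested genes called lower at an unadjusted p under 0.05 (black ticks), for each setting of the analysis (vertical axis). The red circles run from 48.0% without eIF5A-KO replicate 1 or 3 to 88.0% with the gene length trend taken out, and the black ticks stay at or below 5.44%.

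Counts in each role stand beside the 51.7% of all tested genes below 0. They also stand beside the 4.02% lower at an unadjusted p under 0.05 and the 6.83% lower without overlap. Cyclins and activators of Cdk1 were lower in all 8 cases, with log2 fold changes from -0.97 to -0.43 and a median of -0.76. For 7 of the 8 the unadjusted p was under 0.05, and for all 8 the groups did not overlap. Ccna2 (ENSMUSG00000027715, chromosome 3, 36564865 to 36572150 on mm10, as for all genes), cyclin A2, which drives S phase and entry into mitosis, was at 96.2, 68.2 and 63.1 CPM in WT replicates 1 to 3 and 39.2, 49.96 and 36.1 CPM in the libraries labelled eIF5A-KO. Every labelled eIF5A-KO library lay below the lowest WT library, and WT replicate 1 was well above the other two. The log2 fold change was -0.86 (95% interval -1.35 to -0.37, edgeR adjusted p = 0.398). Ccna2 shares its locus with Exosc9 on the other strand, which had 56.7% as many counts and a log2 fold change of -0.15. Ccnb1 (ENSMUSG00000041431, chromosome 13, 100778650 to 100786570), cyclin B1, the partner of Cdk1, was at 94.7, 69.01 and 61.9 CPM in WT and 38.1, 56.5 and 37.1 CPM in the labelled eIF5A-KO libraries. The order of the libraries was that of Ccna2, with eIF5A-KO replicate 2 closest to WT. Its log2 fold change was -0.78 (-1.31 to -0.25, adjusted p = 0.495). Ccnf (ENSMUSG00000072082, chromosome 17, 24223232 to 24251409), cyclin F, the substrate receptor of a ubiquitin ligase, was at 21.5, 25.8 and 24.2 CPM against 20.6, 20.04 and 12.4 CPM. The groups touched without overlapping, since eIF5A-KO replicate 1 lay just under WT replicate 1, and the interval of its log2 fold change of -0.43 reached above 0 (-0.94 to 0.073). Cdk1 itself had a log2 fold change of -0.88, cyclin B2 (Ccnb2) -0.74, the Cdk-binding subunit Cks2 -0.62, and the phosphatases Cdc25b and Cdc25c -0.68 and -0.97. Cks2 has a processed pseudogene, Gm15452, with 17.0% as many counts, and Cdc25b overlaps Spef1 on the other strand (61.5% as many counts).

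The 3 mitotic kinases outside the passenger and checkpoint complexes had a median log2 fold change of -0.44, and 1 of them, Nek2, had an unadjusted p under 0.05. Nek2 (ENSMUSG00000026622, chromosome 1, 191821444 to 191833050), which separates centrosomes before mitosis, was at 30.7, 26.8 and 22.2 CPM in WT replicates 1 to 3 and 16.3, 19.7 and 15.3 CPM in those labelled eIF5A-KO. All 3 of these lay below the lowest WT value, for a log2 fold change of -0.63 (-1.08 to -0.19, edgeR adjusted p = 0.503). Aurka (ENSMUSG00000027496, chromosome 2, 172356190 to 172370535), the Aurora kinase of the spindle poles, was at 43.9, 31.04 and 31.2 CPM against 26.5, 31.5 and 20.4 CPM. Here eIF5A-KO replicate 2 was above WT replicates 2 and 3, so that the groups overlapped, and the log2 fold change of -0.44 had an interval of -0.94 to 0.067. Plk1, the Polo kinase of mitotic entry, did not overlap between groups, yet its interval (-0.92 to 0.063) also held 0.

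The chromosomal passenger complex, which corrects faulty attachments and later directs cytokinesis, had a median log2 fold change of -0.50, and 2 of its 4 genes had an unadjusted p under 0.05. Its scaffold Incenp (ENSMUSG00000024660, chromosome 19, 9872297 to 9899533) was at 63.1, 75.6 and 73.5 CPM in WT and 52.9, 58.1 and 38.04 CPM in the libraries labelled eIF5A-KO. The groups were separate and eIF5A-KO replicate 3 was the lowest, with a log2 fold change of -0.51 (-0.96 to -0.063, edgeR adjusted p = 0.644). Survivin, encoded by Birc5 (ENSMUSG00000017716, chromosome 11, 117849251 to 117855743), was at 86.03, 42.1 and 61.05 CPM against 48.1, 56.1 and 31.4 CPM. WT replicate 2 was below 2 of the labelled eIF5A-KO libraries, and WT replicate 1 was more than 2-fold above WT replicate 2. Its log2 fold change of -0.48 had an interval of -1.14 to 0.18. The kinase Aurkb had a log2 fold change of -0.44 and the targeting subunit Cdca8 one of -0.56. Cdca8 overlaps 9930104L06Rik on the other strand, which had 43.1% as many counts.

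The spindle assembly checkpoint held a wide range, from -0.92 for Bub1b to -0.094 for Bub3, with 3 of 5 genes at an unadjusted p under 0.05. Bub1b (ENSMUSG00000040084, chromosome 2, 118598211 to 118641591), whose product BubR1 is part of the inhibitor of the anaphase-promoting complex, was at 48.7, 66.4 and 44.5 CPM in WT replicates 1 to 3 and 24.8, 37.01 and 22.5 CPM in the libraries labelled eIF5A-KO. The highest of these, replicate 2, lay below the lowest WT library. The log2 fold change was -0.92 (-1.47 to -0.38, edgeR adjusted p = 0.398). Bub1 (ENSMUSG00000027379, chromosome 2, 127801122 to 127831865), the kinase that recruits the checkpoint to kinetochores, was at 38.6, 24.2 and 23.9 CPM against 11.8, 20.1 and 17.8 CPM. Its groups were also separate, and eIF5A-KO replicate 1 rather than 3 was the lowest, with a log2 fold change of -0.80 (-1.40 to -0.20). Bub3 (ENSMUSG00000066979, chromosome 7, 131560222 to 131571895), the binding partner of both, was at 173, 126 and 147 CPM in WT and 136, 151 and 131 CPM in the labelled eIF5A-KO libraries. These groups overlapped, since eIF5A-KO replicate 2 was above WT replicates 2 and 3. The interval of its log2 fold change, -0.49 to 0.30, ended above the log2 fold changes measured for its partners Bub1 and Bub1b, although the difference between the genes was not tested. Mad2l1, the checkpoint protein MAD2, had a log2 fold change of -0.80, and Ttk, the MPS1 kinase that starts checkpoint signalling, one of -0.59 with groups that overlapped.

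**Figure D4:**
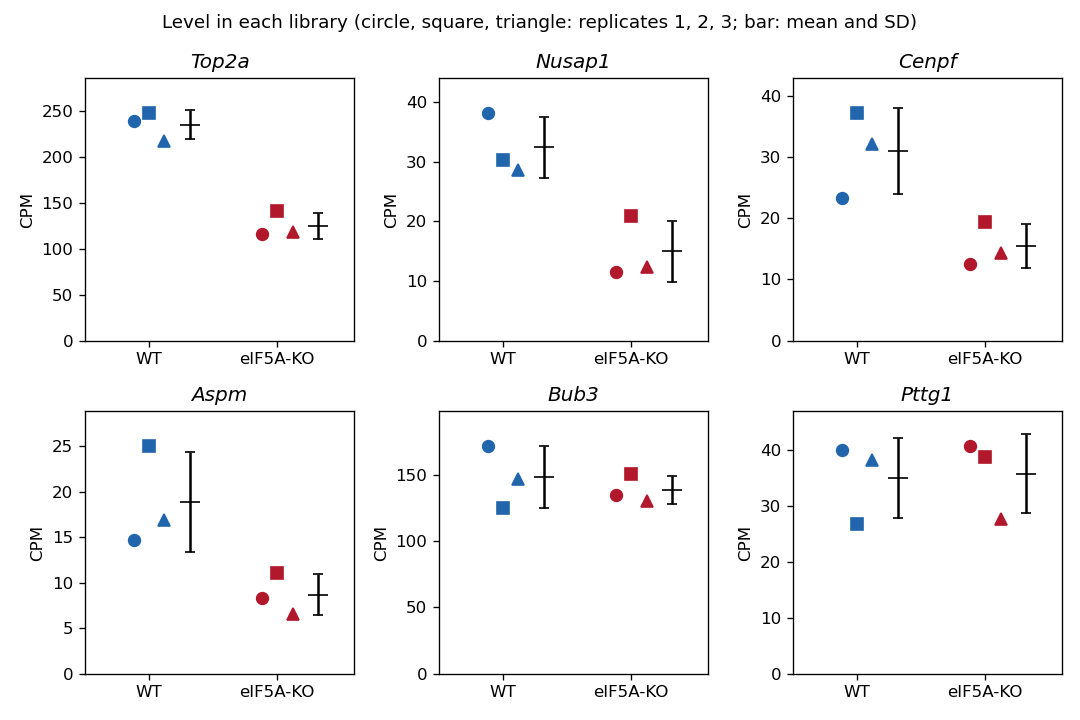
Level in CPM (vertical axis, from 0) in each library for the 4 genes with the smallest p, and for the 2 genes nearest to no change. Circles, squares and triangles are replicates 1, 2 and 3, and black bars give the mean and SD of 3 libraries. Top2a, Nusap1, Cenpf and Aspm do not overlap between groups, and Bub3 and Pttg1 do.

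Centromere and kinetochore genes were lower in all 7 cases, each with an unadjusted p under 0.05, against 4.02% of all tested genes. Their median log2 fold change was -0.78. Cenpf (ENSMUSG00000026605, chromosome 1, 189640606 to 189688086), a large coiled-coil protein of the outer kinetochore, was at 23.4, 37.3 and 32.2 CPM in WT replicates 1 to 3 and 12.5, 19.5 and 14.3 CPM in the libraries labelled eIF5A-KO. The lowest WT library, replicate 1, was above the highest labelled eIF5A-KO library, replicate 2. The log2 fold change was -1.01 ± 0.24 (standard error), with an interval of -1.55 to -0.47 and an adjusted p of 0.389 in edgeR. Nuf2 (ENSMUSG00000026683, chromosome 1, 169497934 to 169531464), a subunit of the Ndc80 complex that holds microtubules, was at 48.4, 34.3 and 40.5 CPM against 23.1, 26.9 and 21.7 CPM. The groups were separate, and the 3 labelled eIF5A-KO libraries lay close together, for a log2 fold change of -0.78 (-1.21 to -0.35, adjusted p = 0.396). Ndc80 (ENSMUSG00000024056, chromosome 17, 71496100 to 71526857) was at 22.01, 14.3 and 21.6 CPM in WT and 11.1, 13.7 and 14.7 CPM in those labelled eIF5A-KO. WT replicate 2 lay just below eIF5A-KO replicate 3, and WT replicates 1 and 3 were above all. Its log2 fold change was -0.55 (-1.06 to -0.049), and a pseudogene copy, 2700099C18Rik, had a log2 fold change of -0.54. The 4 subunits of the Ndc80 complex ranged from -0.85 for Spc24 to -0.55 for Ndc80. The centromeric histone Cenpa had a log2 fold change of -0.92 and the motor Cenpe one of -0.61.

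Genes that act at the onset of anaphase divided into 3 with an unadjusted p under 0.05 and 2 without. Sgol1 (ENSMUSG00000023940, chromosome 17, 53674786 to 53689333) was at 16.8, 12.7 and 15.2 CPM in WT replicates 1 to 3 and 7.27, 10.1 and 8.55 CPM in the libraries labelled eIF5A-KO. No value of one group reached the other, for a log2 fold change of -0.78 (-1.26 to -0.30, edgeR adjusted p = 0.423). Ube2c (ENSMUSG00000001403, chromosome 2, 164769898 to 164778822), the ubiquitin-conjugating enzyme of the anaphase-promoting complex, was at 73.8, 48.2 and 59.2 CPM against 42.04, 46.2 and 30.004 CPM. WT replicate 2 was only slightly above eIF5A-KO replicate 2, and the log2 fold change was -0.62 (-1.12 to -0.11). Pttg1 (ENSMUSG00000020415, chromosome 11, 43420250 to 43426251), securin, the inhibitor of separase, was at 39.95, 26.7 and 38.2 CPM in WT and 40.8, 38.8 and 27.6 CPM in the labelled eIF5A-KO libraries. It was the only one of the 50 with a log2 fold change above 0, at 0.032 (-0.47 to 0.53), and its lowest WT and lowest labelled eIF5A-KO values were close to each other. Espl1, separase, had a log2 fold change of -0.48 with an interval of -1.21 to 0.25, and its lowest value of all 6 libraries was in WT replicate 1. Cdc20, the activator that the checkpoint restrains, had a log2 fold change of -0.55. It overlaps Elovl1 on the other strand, which had 197% as many counts and a log2 fold change of 0.43.

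Condensin and other genes of mitotic chromosome structure were lower in all 7 cases at an unadjusted p under 0.05, with a median of -0.72. Top2a (ENSMUSG00000020914, chromosome 11, 98992943 to 99024189), the topoisomerase that untangles sister chromatids, was at 239, 248 and 218 CPM in WT replicates 1 to 3 and 116, 141 and 118 CPM in the libraries labelled eIF5A-KO. Means were 235 ± 15.6 and 125 ± 13.96 CPM (SD, n = 3 each). The spread within each group was small beside the distance between them. Its log2 fold change of -0.91 ± 0.17 (standard error; interval -1.28 to -0.54) had the smallest p of the 50, and its adjusted p in edgeR was 0.242. Ncapg (ENSMUSG00000015880, chromosome 5, 45669919 to 45700546), a subunit of condensin I, was at 31.3, 20.1 and 21.8 CPM against 12.2, 18.03 and 11.9 CPM. The groups were separate by a small distance between WT replicate 2 and eIF5A-KO replicate 2, and the log2 fold change was -0.80 (-1.35 to -0.24). Lcorl, on the other strand, had 56.3% as many counts and a log2 fold change of -0.27. Ncaph (ENSMUSG00000034906, chromosome 2, 127103809 to 127133954), the kleisin of the same complex, was at 41.4, 44.9 and 47.3 CPM in WT and 36.1, 36.3 and 26.7 CPM in those labelled eIF5A-KO. All 3 WT values were above all 3 others, with a smaller log2 fold change of -0.43 (-0.84 to -0.021). The 5 subunits of condensin I, Smc2, Smc4, Ncapd2, Ncapg and Ncaph, ranged from -0.80 to -0.43. Mki67, which coats mitotic chromosomes and marks cycling cells, had a log2 fold change of -0.75.

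**Figure D5:**
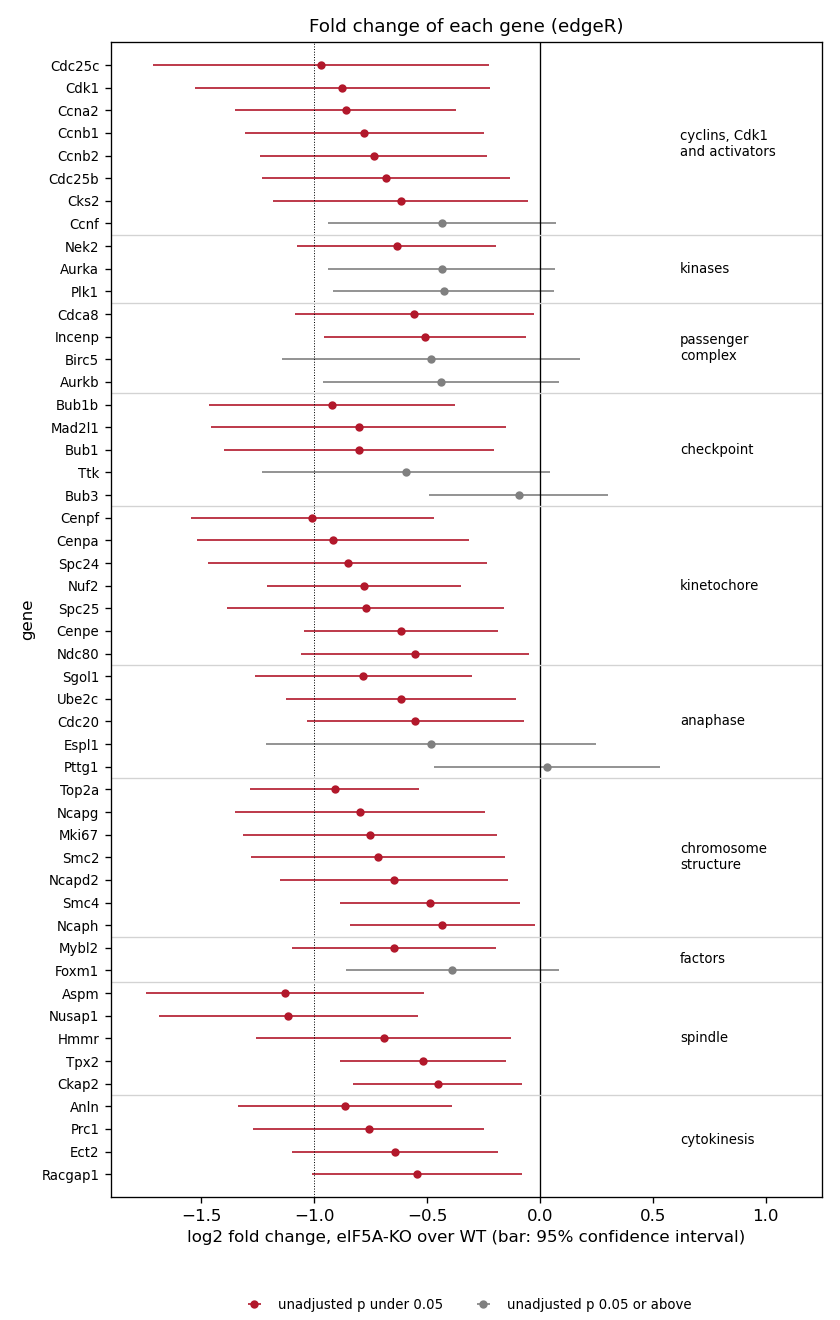
Log2 fold change of eIF5A-KO over WT (horizontal axis) for each of the 50 genes (vertical axis, by role), with 95% confidence intervals from edgeR. Red marks an unadjusted p under 0.05 and the dotted line a 2-fold decrease. Intervals lie wholly below 0 for 40 genes, and Bub3 and Pttg1 are the closest to 0.

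Of the 2 transcription factors of the programme, 1 had an unadjusted p under 0.05. Mybl2 (ENSMUSG00000017861, chromosome 2, 163054687 to 163084688), B-Myb, which acts with the MuvB complex at CHR elements, was at 25.9, 29.2 and 25.3 CPM in WT replicates 1 to 3 and 17.4, 20.6 and 13.4 CPM in the libraries labelled eIF5A-KO. Its groups were separate, for a log2 fold change of -0.65 (-1.10 to -0.19, edgeR adjusted p = 0.503). Foxm1 (ENSMUSG00000001517, chromosome 6, 128362967 to 128376146), the forkhead factor that acts at many of the same genes, was at 35.4, 56.1 and 46.4 CPM against 32.1, 40.6 and 32.7 CPM. Because eIF5A-KO replicate 2 was above WT replicate 1, the groups overlapped, and the interval of -0.39 was -0.86 to 0.083.

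Spindle-associated genes held the 2 lowest log2 fold changes of the 50, and all 5 had an unadjusted p under 0.05, without overlap between the groups. Nusap1 (ENSMUSG00000027306, chromosome 2, 119618298 to 119651244) was at 38.2, 30.3 and 28.6 CPM in WT replicates 1 to 3 and 11.5, 20.9 and 12.4 CPM in the libraries labelled eIF5A-KO. The 3 labelled eIF5A-KO values were all below the 3 WT values, and replicate 2 was again the highest of them. Its log2 fold change was -1.11 ± 0.26 (standard error), with an interval of -1.69 to -0.54 and an adjusted p of 0.362 in edgeR. Oip5, which overlaps Nusap1 on the other strand, had 30.8% as many counts and a log2 fold change of -0.60. Aspm (ENSMUSG00000033952, chromosome 1, 139454772 to 139494091), which focuses spindle poles and is known for its loss in microcephaly, was at 14.7, 25.1 and 16.9 CPM against 8.31, 11.1 and 6.57 CPM. WT replicate 2 was the highest by far, and the groups did not overlap. Aspm had the lowest log2 fold change of the 50, at -1.13 (-1.74 to -0.51, adjusted p = 0.396). Ckap2 (ENSMUSG00000037725, chromosome 8, 22168160 to 22185819), a microtubule-stabilising protein, was at 39.4, 39.99 and 42.2 CPM in WT and 25.8, 30.6 and 32.4 CPM in those labelled eIF5A-KO. The WT values were tightly grouped and above the rest, with a log2 fold change of -0.45 (-0.83 to -0.077). Tpx2, which activates Aurora A on the spindle, and Hmmr, a spindle protein first known as a hyaluronan receptor, had log2 fold changes of -0.52 and -0.69.

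All 4 genes of the midzone and cytokinesis were lower at an unadjusted p under 0.05, and in none did the groups overlap. Anln (ENSMUSG00000036777, chromosome 9, 22332012 to 22389188), anillin, the scaffold of the contractile ring, was at 79.6, 96.2 and 65.1 CPM in WT replicates 1 to 3 and 40.8, 53.7 and 38.1 CPM in the libraries labelled eIF5A-KO. The lowest WT library, replicate 3, stood above eIF5A-KO replicate 2, with a log2 fold change of -0.86 (-1.34 to -0.39, edgeR adjusted p = 0.396). Racgap1 (ENSMUSG00000023015, chromosome 15, 99620496 to 99651656), which with Ect2 switches on RhoA at the cleavage plane, was at 81.97, 88.1 and 76.1 CPM against 54.2, 71.4 and 43.1 CPM. The groups were separate although eIF5A-KO replicate 2 came near WT replicate 3, and the log2 fold change was -0.55 (-1.01 to -0.079). Ect2 and the midzone crosslinker Prc1 had log2 fold changes of -0.64 and -0.76.

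Among the 10 genes whose groups overlapped, 7 also had an unadjusted p of 0.05 or above: Aurka, Birc5, Bub3, Ttk, Pttg1, Espl1 and Foxm1. In 9 of the 10, eIF5A-KO replicate 2 was above the lowest WT library, and in 6 of the 10 that lowest WT library was WT replicate 2. The other 3, Ndc80, Spc25 and Ncapd2, overlapped with an unadjusted p under 0.05, and Ccnf, Plk1 and Aurkb did not overlap with a p of 0.05 or above.

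Genes outside the 50 that belong to the cell cycle were mostly lower as well. Their counts are to be read beside the 51.7% of all tested genes below 0, the 4.02% lower and the 2.74% higher at an unadjusted p under 0.05. Of 97 other mitosis genes, 81 had a log2 fold change below 0, and 38 were lower and 0 higher at an unadjusted p under 0.05 in edgeR. Their median was -0.37. The 3 with the smallest p were Knstrn, a kinetochore and spindle adaptor (log2 fold change -0.92), Spag5, astrin (-0.93), and Cdca2, which targets protein phosphatase 1 to chromatin (-0.98). Of 58 DNA replication genes, 57 were below 0 with a median of -0.41 and 19 were lower at an unadjusted p under 0.05. They included Cdc7, the kinase that fires origins (-0.77), Mcm6 of the replicative helicase (-0.65) and Pole, a replicative polymerase (-0.72). Of 25 CDK inhibitors, D-type cyclins, pocket proteins, their E2F partners and the kinases Cdk2, Cdk4 and Cdk6, 18 were below 0. At an unadjusted p under 0.05, 7 were lower and 0 higher. E2f2, an activating E2F, was at 16.5, 43.7 and 27.4 CPM in WT and 6.17, 5.32 and 3.91 CPM in those labelled eIF5A-KO, which gave -2.51 on the log2 scale (edgeR adjusted p = 0.0879). The inhibitors Cdkn2a and Cdkn2c had the next smallest p of that list, with log2 fold changes of -1.87 and -0.56. Of the other CDK inhibitors, Cdkn1a at 0.33, Cdkn1c at 0.43 and Cdkn2b at 0.37 lay above 0. Below 0 were Cdkn1b at -0.074, Cdkn2d at -0.35 and Cdkn3 at -0.49. None of them had an unadjusted p under 0.05, and no gene of these 3 lists passed adjustment.

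Markers of several cell types were detected. Over all tested genes, 4.02% were lower and 2.74% higher at an unadjusted p under 0.05, the shares beside which the counts of each list stand. Endothelial markers, all 10 of them detected, summed to 1518 to 3086 CPM in WT and 2596 to 3816 CPM in the libraries labelled eIF5A-KO, with 0 of 10 below 0 in log2 fold change and 1, Emcn, higher at an unadjusted p under 0.05 (0.51, followed by Egfl7 at 0.34 and Kdr at 0.48). Mural cell markers summed to 622 to 1210 and 1112 to 1314 CPM, with 10 of 11 above 0 in log2 fold change, 5 of them higher at an unadjusted p under 0.05. One of them, Myh11, smooth muscle myosin, passed adjustment at 10.5, 10.96 and 10.5 CPM against 29.2, 28.3 and 34.2 CPM (edgeR adjusted p = 0.0486). Its adjusted p was under 0.05 in 7 of the 18 alternatives, DESeq2 among them, and ranged from 3.72e-10 with DESeq2 to 0.315 without WT replicate 3. The pericyte genes Pdgfrb and Higd1b had log2 fold changes of 0.81 and 1.91. Macrophage and leukocyte markers summed to 71.0 to 151 and 69.6 to 186 CPM, with 10 of 12 above 0 in log2 fold change and 1, Cd68, higher at an unadjusted p under 0.05 (0.84, followed by Cd14 at 0.31 and Csf1r at 0.35). The 2 below 0 were Ptprc (-0.82) and Adgre1 (-0.18). Fibroblast markers summed to 3307 to 4111 and 3251 to 4256 CPM, with 6 of 12 below 0 in log2 fold change and 6 above. The collagens Col1a1 and Col1a2 were the 2 that were higher at an unadjusted p under 0.05 (0.72 and 0.71, followed by Gsn at 0.37), and the lowest was Lum at -0.38. Myogenic progenitor markers were present in every library, at 1158 to 2017 and 942 to 1792 CPM, and 1 of the 9 tested, Pax7, was lower at an unadjusted p under 0.05, with 12.9, 51.6 and 25.1 CPM in WT and 12.95, 8.28 and 10.6 CPM in those labelled eIF5A-KO. Log2 fold changes were -1.50 for Pax7, -0.61 for the myogenic factor Myod1 and -1.04 for the receptor Fgfr4, the 3 with the smallest p. Of the 9, 6 were below 0 and 3 above, Heyl (0.56), Myf5 (0.13) and Sdc4 (0.11), and Des stands in both the progenitor and the mural list. Differentiated muscle markers summed to 370 to 678 and 265 to 405 CPM, with 12 of the 13 tested below 0 in log2 fold change, 5 of them at an unadjusted p under 0.05, and Tnnc2 at 0 in all 6 libraries. Among them Myog, the factor of terminal differentiation, had a log2 fold change of -2.94, the fusion protein Mymk -2.89 and the slow troponin Tnnt1 -1.25. WT replicate 1, the highest library for 29 of the 50 mitosis genes, had the lowest progenitor and endothelial sums of the WT group. The part of these markers in the lower level of the mitosis genes was not tested.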

How the data were processed

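The data were 3 WT and 3 eIF5A-KO bulk RNA-seq libraries of primary myoblasts, grouped by the labelled genotype. The authors prepared libraries with an NEBNext Ultra kit and, per the submitters' processing notes, mapped reads to mm10 with HISAT. According to the methods, read coverage per gene was computed with DEGSeq2. The authors deposited raw read counts per gene and a second table of FPKM, fragments scaled to gene length and library size. Strand use in counting and the annotation are not given in the sources used here.

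Counts were tested in R 4.3.3 with edgeR 4.0.16 (filterByExpr, TMM, quasi-likelihood F test, two-sided, no covariate) and adjusted by Benjamini-Hochberg over the 14679 tested genes, with a threshold of 0.05. CPM use TMM factors, and intervals are at 95%. The common biological coefficient of variation was 0.239. Reads carry no molecular identifiers.

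The members and lists were chosen with earlier results of these data known. In each role the genes with the smallest and the largest p are described, in roles of 5 or more also the second smallest, and every gene past 2-fold. Outside the 50, the 3 genes of smallest p in each list are given. Alternatives were other scalings and filters, DESeq2 1.42.0, limma 3.58.1 (voom, or log2(FPKM + 1) and log2(FPKM + 0.1)), a replicate block, each library left out and, chosen after seeing the data, a gene length trend taken out. Overlapping genes came from GENCODE M21, with which 47 of 50 positions matched, and copies from blastn 2.17.0 at 90% identity over 200 bases. By that measure 14 of the 50 have a pseudogene copy, 2 of them with at least 10% as many counts, and stretches of Cenpf and Hmmr recur in other transcripts.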

Additional observations from a re-analysis of the deposited data

How the results depend on the processing

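Counts of genes at an adjusted p under 0.05 depended on the processing more than the direction did. In place of 0 of the 50, there were 11 without an expression filter, where 0.683% of all genes were called lower, and 4 with DESeq2, where 0.470% were. When each library was left out there were 0 to 1, with 0.319% of all genes called lower without WT replicate 1. The count at an unadjusted p under 0.05, 40, ranged from 24 to 37 when each library was left out. It was lowest without eIF5A-KO replicate 1 and without eIF5A-KO replicate 3. The shares of all tested genes in the left-out fits ran from 2.66% to 5.44%. The count more than 2-fold lower, 3, was 0 with limma on log2(FPKM + 1), whose pseudocount shrinks low genes, and ranged from 0 to 11 over the libraries left out. The shares of all tested genes were 0.320% and 1.26% to 2.11%. The median log2 fold change of the 50 stayed between -0.79 and -0.55 over all 18 alternatives. The direction of Pttg1 turned to -0.021 with the gene length trend taken out, and ran from -0.13 to 0.19 over the libraries left out. Bub3 ran from -0.20 to 0.035. The cause was not tested. With the replicate block, 37 of the 50 were lower at an unadjusted p under 0.05, against 3.49% of all tested genes. At an adjusted p under 0.05 there were 0, the median was -0.65, and calls over all genes went from 3 to 24. Deviations of samples that share a number had correlations of 0.103, -0.221 and 0.113 for replicates 1 to 3. The highest correlation of each WT sample with an eIF5A-KO sample of another number was 0.339, 0.288 and 0.0765. With 3 libraries a group, deviations from the group mean are tied to each other, so these values cannot decide on pairing. The main fit used no pairs. At 3 libraries a group, the median 95% interval of the 50 reached 0.51 to either side on the log2 scale, close to the median difference.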
